A study of Mus musculus with 4 samples.

Results

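A set of 10 transcription factors that direct the development of lymphocytes was followed across livers and spleens of mice on diets poor or rich in nucleoprotein (NP). They are Ikzf1, Spib, Ebf1, Bcl11a, Bach2, Runx3, Id3, Lef1, Satb1 and Myb, which make 10 of the 27670 gene labels on the array. They were chosen by name, as every probe that is not a control and carries one of these names in the scanner files, where Ikzf1 still has its older name Zfpn1a1. This gave 21 of 41174 probes, and the brightest probe over all 4 arrays stands for each gene. Male C57BL/6J mice, 13 weeks old, were fed during 4 weeks with a purified diet poor in NP, which held 0.03% nucleic acids, or with that diet with 1.2% of the nucleoprotein product added, which held 0.5%. Whether the age is that at the start or at the end of feeding is not given by the labels. RNA from each tissue was pooled within a diet, from a number of mice that the labels do not give. Each tissue was hybridised on 2 two-colour arrays of the same slide, and array 1 carried the NP pool as Cy5 while array 2 carried it as Cy3.

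The pair of arrays was taken to be 1 set of pools with its dyes swapped. There was thus 1 replicate per diet and tissue, and no test and no p-value could be given. The labels number the pools along with the dyes, so separate pools for each array cannot be told apart from this reading. Ratios are on the log2 scale with NP over low NP, the opposite direction to the deposited value table of the series, and ± gives how far each array lay from the mean of both. A gene is called lower or higher in NP when both arrays differ by at least 1.5-fold in the same direction, which is a rule of size.

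Lymphoid transcription factors set which genes a blood progenitor keeps open as it commits to the B, T or natural killer (NK) lineage. Several of them bind one another's genes, and some act mainly by repression or by holding chromatin in loops. The spleen is built largely of B and T cells, whereas in the liver these factors are mostly carried by resident and passing lymphocytes, with Id3 among those also made by other cell types.

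The probes for Ikzf1 and Id3 are shown because each one reads spliced RNA. The Ikzf1 probe covers chr11:11710324-11713283 and the Id3 probe chr4:135522597-135522771 on the plus strand of mm7, per the array files, so both 60-base probes cross an exon junction within the coding part of their gene. They are printed 5′ to 3′ with no base marked.
Ikzf1 probe: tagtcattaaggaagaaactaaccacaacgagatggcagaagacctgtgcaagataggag
Id3 probe: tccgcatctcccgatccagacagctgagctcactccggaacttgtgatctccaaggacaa

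Because these factors bind DNA, the 250 bases before each RefSeq start were searched on both strands for short letter patterns known for their families. The 3 patterns marked in capitals below are TGGGAA, the core of the Ikaros family, AGGAAG, the core of ETS proteins such as SPI-B, and TGTGGT, that of RUNX proteins. The 3 promoters are shown as those with the most such matches for Runx3, Id3 and Ikzf1, all on the plus strand of GRCm38.p6. The Runx3 window lies at chr4:135120395-135120644, the Id3 window at chr4:136143572-136143821 and the Ikzf1 window at chr11:11689927-11690176, the last of them before the second of the 2 listed Ikzf1 starts.
Runx3 promoter: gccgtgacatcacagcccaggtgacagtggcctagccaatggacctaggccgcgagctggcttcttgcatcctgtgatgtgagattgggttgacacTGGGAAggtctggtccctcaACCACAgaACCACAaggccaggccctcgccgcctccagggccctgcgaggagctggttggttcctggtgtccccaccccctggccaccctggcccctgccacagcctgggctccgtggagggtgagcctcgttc
Id3 promoter: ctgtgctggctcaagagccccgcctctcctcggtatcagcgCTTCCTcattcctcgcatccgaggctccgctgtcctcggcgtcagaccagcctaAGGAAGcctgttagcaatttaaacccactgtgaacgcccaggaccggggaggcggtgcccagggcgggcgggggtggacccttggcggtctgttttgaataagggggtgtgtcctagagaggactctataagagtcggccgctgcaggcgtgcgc
Ikzf1 promoter: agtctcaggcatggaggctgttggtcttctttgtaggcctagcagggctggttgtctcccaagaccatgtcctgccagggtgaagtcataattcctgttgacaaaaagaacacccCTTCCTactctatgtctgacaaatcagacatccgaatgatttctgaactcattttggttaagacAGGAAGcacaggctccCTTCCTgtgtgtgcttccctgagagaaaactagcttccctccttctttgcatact

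The Runx3 window held 2 RUNX matches and 1 Ikaros match, the Id3 window 2 ETS matches and the Ikzf1 window 3 ETS matches, none overlapping another. Such short patterns are common. TGGGAA was found in 21.6% of 32841 promoters and in 4 of the 20 promoters of these 10 genes, before starts of Bcl11a, Ebf1, Runx3 and Satb1. AGGAAG was found in 29.5% of all promoters and in 4 of the 20, before starts of Id3, Ikzf1, Lef1 and Satb1. TGTGGT was found in 14.0% of all promoters and in 2 of the 20, those of Ebf1 and Runx3. These counts describe letters in this window and show no binding.

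Before the factors are described, the pools themselves need a description. Hepatocyte markers in spleen, most B and T cell markers in liver and exocrine pancreas markers in both were higher in the low-NP pools. In the low-NP spleen, all 15 of 15 hepatocyte markers were called against NP, with a median log2 ratio of -5.79. Their summed net intensity was 1708371 on array 1 and 2930087 on array 2, against 170062 and 13751 in the NP spleen. As a median over the 15 markers, the level in the low-NP spleen was 40.7% of that in the NP liver, and in the NP spleen 1.07%. Each of the 15 was well above background on at least 1 array in both spleen pools. In the NP spleen, 15 were so on array 1 and 13 on array 2. All 15 of 15 exocrine pancreas markers were also called lower in NP in both tissues, with medians of -1.01 in liver and -2.12 in spleen. In the low-NP liver, 11 of 14 B cell markers and 9 of 15 T cell markers were higher than in the NP liver by the same rule. The B cell markers summed to 31261 and 93955 units of net intensity in the low-NP liver against 3927 and 1716 in the NP liver, where Cd79a, Blk and Btla were not well above background on either array. The T cell markers summed to 12743 and 37217 units against 10332 and 5218, with Cd28 and Trat1 not well above background in the NP liver. All these sums were taken before normalization, so they carry the difference between the dyes. Whether RNA of another tissue had a part in the ratios of the 10 factors was not tested. In pooled RNA of a whole tissue, fewer cells of a type and less RNA per cell cannot be told apart.

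One property of the processing touches the liver values below. The background model used, normexp, placed the background of liver array 1 far under the measured one, so that a spot no brighter than its surroundings still received 342.7 units in Cy3 and 507.2 units in Cy5, and the median net signal of a spot was 50.6 and 64.4. On the other 3 arrays that amount lay between 0.1 and 50.7 units. For dim probes this pulls the ratios of liver array 1 towards 0. The liver ratios of the factors, and the counts and medians of the gene lists, are therefore also given from the net signal (mean minus local background) with 50 units added and the same loess step, an alternative chosen after seeing the data.

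In the liver, 9 of the 10 factors had lower mean levels in the NP pool than in the low-NP pool, and Id3 did not. By the rule, 5 were called lower, Spib, Lef1, Bcl11a, Satb1 and Ikzf1, and none higher, where 3.65% of all 16967 genes measured in liver were called lower and 0.0707% higher. The net signal called 9 factors lower and none higher, where the shares of all genes were 8% and 0.106%. Without background subtraction 8 were called lower, where 7.83% of all genes were, and from the scanner's processed signals 9, where 10.3% of all genes were called lower and 1.75% higher. The median over the 10 factors was a log2 ratio of -1.23, and -1.98 with the net signal, whereas the median over all measured genes was 0.001 and -0.006. The arrays lay a median of 0.64 from their mean with normexp and 0.07 with the net signal. In the spleen no factor was called in either direction.

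**Figure D1:**
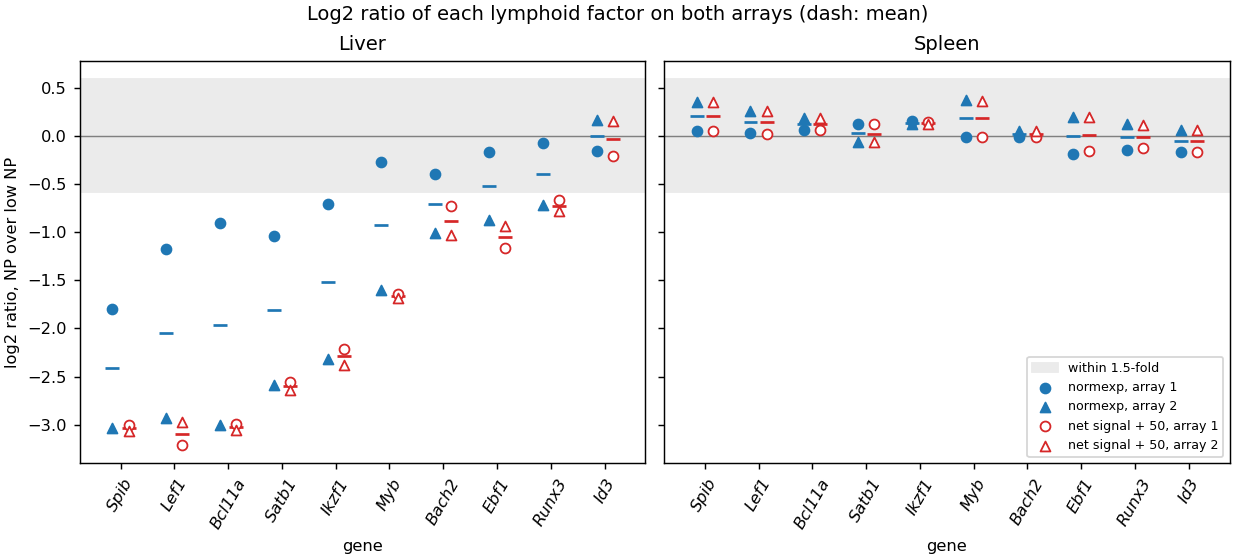
Log2 ratio of NP over low NP (vertical axis) for each of the 10 factors on both arrays of liver and spleen, with normexp background correction (filled) and with the net signal plus 50 units (open). Dashes are means of both arrays, and the grey band marks less than 1.5-fold. In liver the open points of the arrays lie together and below the band for all factors but Id3, while in spleen every point lies inside the band.

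Ebf1 encodes the pioneer factor that opens B lineage genes in early progenitors. Its net intensity in the low-NP liver was 78 units on array 1 and 151 on array 2. In the NP liver it was 12.5 and 22.8 units, not well above background on either array. The log2 ratio was -0.17 and -0.87, a mean of -0.52 ± 0.35, and it was not called. On the net signal its ratios were -1.16 and -0.94, past the 1.5-fold rule on both arrays. The bound for the NP level was 2.03-fold lower (1.43-fold with normexp). Such a bound sets the mean level of the bright pool against the dim pool's own signal or, where higher, the lowest signal of any probe well above background. It is taken on the mean of the arrays for the brightest probe, and is no lower limit over single arrays or other probes. A second Ebf1 probe, in the same gene but farther upstream, gave -0.13 ± 0.07 and -0.40 ± 0.18 and was called under neither setting. In spleen the ratio was -0.19 and 0.19, so that the arrays differed in sign.

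Spib encodes the ETS factor SPI-B, which acts in B cell receptor signalling and in plasmacytoid dendritic cells. Its liver ratio was -1.80 and -3.03 on the arrays with a mean of -2.41 ± 0.62, or 5.33-fold. The net signal gave -3.0 and -3.06 on the arrays. Net intensity was 247 and 93.2 units in the NP liver and 1153 and 2703 in the low-NP liver, well above background in both pools. In spleen, where its signal was 22242 and 8439 units in the NP pool, the ratio was 0.05 and 0.35, and not called.

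Bcl11a encodes a zinc-finger repressor needed for B cell development and known for silencing fetal globin genes. Its brightest probe was well above background in the low-NP liver, at 357 and 1164 units, and not in the NP liver, at 26.2 and 22.3 units. The log2 ratio was -0.91 and -3.0, a mean of -1.96 ± 1.04, and -2.99 and -3.05 with the net signal. By this probe the bound on the mean of the arrays was 3.76-fold lower, and 8.07-fold with the net signal. The other Bcl11a probes were well above background in the NP liver on at least 1 array and gave -1.44 ± 0.70, which was called, and -1.30 ± 0.81, which missed the rule on array 1 alone, and both were called with the net signal at -2.23 ± 0.04 and -1.98 ± 0.19. All 3 probes of the gene thus pointed the same way in liver, and in spleen they lay between 0.10 and 0.12.

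Bach2 encodes a repressor that delays plasma cell formation and restrains effector T cells. In the liver its net intensity was 702 and 428 units in the NP pool and 571 and 2302 in the low-NP pool, values that carry the difference between the dyes. After normalization the log2 ratio was -0.40 and -1.01, a mean of -0.71 ± 0.30, and not called. The net signal gave -0.73 and -1.03, which was called. Its other probe was not well above background in either tissue. The spleen ratio was -0.01 and 0.05.

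Lef1 encodes a partner of beta-catenin in Wnt signalling that acts with Tcf7 in T cell development. Its liver ratio was -1.18 and -2.93, a mean of -2.05 ± 0.87, and -3.21 and -2.97 with the net signal with a mean of -3.09 ± 0.12. Net intensity was 44.8 and 36.5 units in the NP liver and 494 and 1382 in the low-NP liver. A second probe, which crosses an exon junction, gave -1.38 ± 0.88, missing the rule on array 1, and -2.14 ± 0.19 with the net signal. The third Lef1 probe was not well above background on both arrays of either tissue and counts as not measured. In spleen the first probe gave 0.03 and 0.26.

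Satb1 encodes a genome organiser that folds chromatin in thymocytes. The liver ratio was -1.04 and -2.59, a mean of -1.81 ± 0.78, and -2.56 and -2.64 with the net signal. Its net intensity was 100 and 56.8 units in the NP liver against 469 and 1380 in the low-NP liver. A second probe gave -1.23 ± 0.87, missing the rule on array 1, and -1.97 ± 0.20 with the net signal. The spleen ratio was 0.12 and -0.07, so the arrays differed in sign.

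Runx3 encodes the RUNX factor that silences Cd4 in cytotoxic T cells and is also active in NK cells. The net intensity of its brightest probe was 49.3 and 101 units in the low-NP liver and 12.4 and 18.1 units in the NP liver, where it was not well above background. The ratio was -0.08 and -0.72, a mean of -0.40 ± 0.32, and not called. The net signal gave -0.67 and -0.78, past the rule, and a bound on the mean of 1.64-fold lower (1.31-fold with normexp). The second Runx3 probe was well above background in both liver pools and gave -0.01 ± 0.04, or 0.05 ± 0.11 with the net signal, so the probes of this gene disagreed. The spleen ratio was -0.15 and 0.12.

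Ikzf1 encodes Ikaros, a zinc-finger factor of all lymphoid lineages. Its net intensity was 71.2 and 44.1 units in the NP liver and 306 and 951 in the low-NP liver. The exon-junction probe printed above gave -0.71 and -2.32, a mean of -1.52 ± 0.80 or 2.86-fold, and -2.21 and -2.38 with the net signal. Both settings called it lower. In spleen its signal was 8164 and 2241 units in the NP pool and the ratio 0.15 and 0.12, the closest pair of spleen values among the 10 factors.

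Myb encodes c-Myb, which keeps blood progenitors dividing and is high in thymocytes and erythroid precursors. Its brightest probe is spotted 10 times on each array, which gives the spread between spots within an array. With normexp, over 9 usable spots the SD of the log2 ratio was 0.0267 on liver array 1 and 0.107 on liver array 2. Over 10 spots it was 0.0275 and 0.0202 on the spleen arrays. The means of the liver arrays, -0.27 and -1.60, differed by more than that spread within an array. On liver array 1 normexp narrows the spread of so dim a probe along with its ratio, and no spread was computed on the net signal. The net signal gave -1.64 and -1.68. Its net intensity in the NP liver was 8.3 and 14.9 units, not well above background, and in the low-NP liver 110 and 280. The mean of -0.93 ± 0.66 was not called with normexp. The bound on the mean was 1.84-fold lower, or 2.98-fold with the net signal. Of the other 3 Myb probes, 1 was not measured in liver and the others gave -0.55 ± 0.39 and -0.23 ± 0.18, neither called. These were, on the net signal, -1.04 ± 0.03, called, and -0.49 ± 0.04, not called. The spleen ratio was -0.01 and 0.37.

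Id3 encodes an inhibitor that binds E proteins such as the product of Tcf3 and keeps them off DNA. Its signal in the liver was as high as in the spleen. Its net intensity was 7723 and 3902 units in the NP liver and 3498 and 9141 in the low-NP liver. Those values follow the dye, and the normalized ratio was -0.16 and 0.16, a mean of 0.00 ± 0.16. It was -0.21 and 0.15 with the net signal. The spleen ratio was -0.17 and 0.06.

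In spleen the means of the 10 factors lay between -0.05 for Id3 and 0.20 for Spib, with a median of 0.07, and the arrays lay a median of 0.11 from their mean. Of all 18409 genes measured in spleen, 6.36% were called lower in NP and 0.0435% higher, and none of the 10 was among them. None was called under the net signal (5.97% of all genes lower and 0.0326% higher), without background subtraction (5.94% and 0.0326%) or with the processed signals (6.19% and 0.261%). The sign of the small spleen median turned with the scaling. It was -0.11 with median centring, under which the median over all measured spleen genes moved from -0.016 to -0.148.

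The levels of each probe could also be ordered over the 4 pools, as normalized log2 levels with each array's distance from the mean. Spib stood at 8.82 ± 0.49 in the NP liver, 11.24 ± 0.13 in the low-NP liver, 13.56 ± 0.06 in the low-NP spleen and 13.76 ± 0.08 in the NP spleen. Ebf1 stood at 7.84 ± 0.14, 8.36 ± 0.21, 9.29 ± 0.15 and 9.29 ± 0.34 in the same order. Id3 stood at 12.64 ± 0.05, 12.64 ± 0.11, 12.43 ± 0.02 and 12.38 ± 0.14, and was the sole factor with a higher level in liver than in spleen. For the 9 factors other than Id3 the array values of the liver pools did not overlap, with the NP liver below the low-NP liver, and for all 10 those of the low-NP liver and the low-NP spleen did not. The spleen pools overlapped for 8 of the 10, the exceptions being Spib and Bcl11a, whose gaps were under the 1.5-fold rule. The same counts were found with the net signal. The share of all genes whose pools lay apart in this way was not counted, so these counts describe the factors alone.

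**Figure D2:**
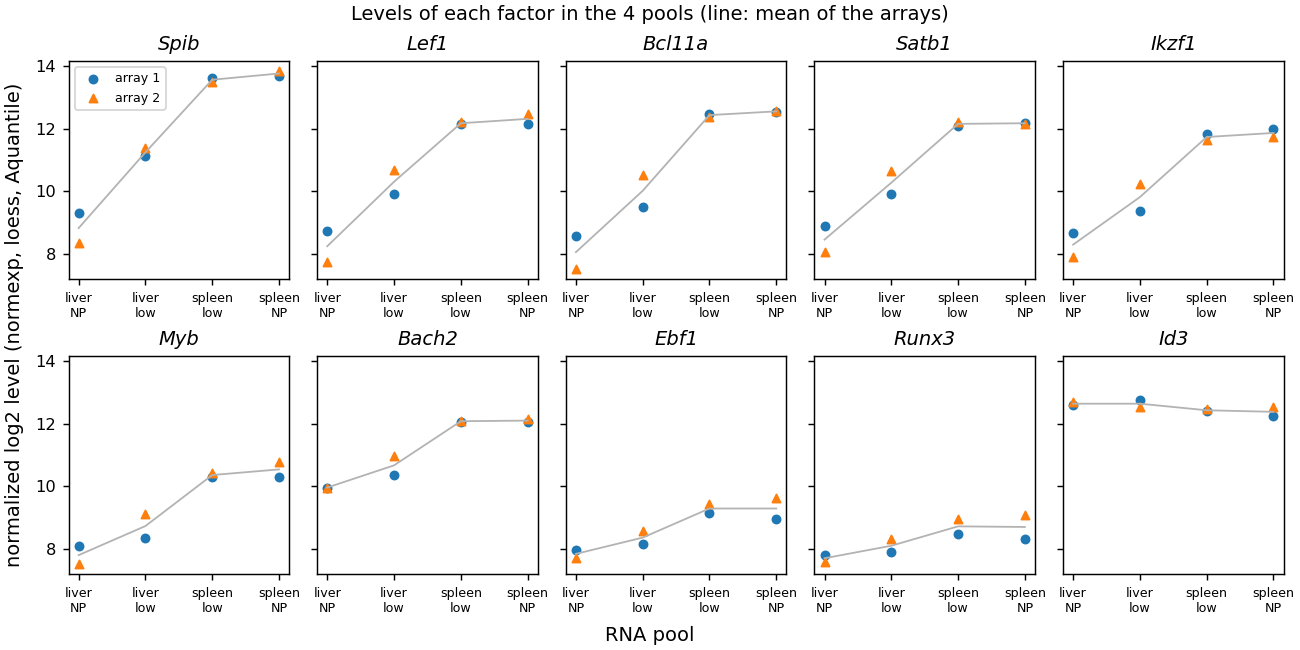
Normalized log2 level of each factor (vertical axis) in the NP liver, low-NP liver, low-NP spleen and NP spleen pools, with one point per array and a line through the means. Levels of one gene can be compared between pools, not levels of different genes. All factors but Id3 are lowest in the NP liver, intermediate in the low-NP liver and highest in the spleen pools, which lie close together.

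Set against the NP spleen, the NP liver held between 3.28% (Spib) and 49.7% (Runx3) of the signal of the 9 factors other than Id3, and the low-NP liver between 17.2% (Bcl11a) and 65.6% (Runx3). The medians over all 10 were 11.7% and 27.6%, and 6.75% and 27.4% with the net signal. Id3 stood at 120% of the NP spleen in both liver pools. In the NP liver the net intensity of Runx3, Ebf1, Myb, Bcl11a and Lef1 was under the offset of 50 units on both arrays, so that the offset makes up much of their level there.

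A difference of signals was also taken, which removes an amount common to both liver pools while the NP spleen signal it is divided by keeps it. With normexp the low-NP liver exceeded the NP liver by 15.7% of the NP spleen signal for Ikzf1, 14.2% for Spib, 12.7% for Bcl11a, 18.9% for Lef1 and 19.1% for Satb1. The factors that missed the rule were within the same span under that setting, with Ebf1 at 15.8%, Runx3 at 15.9%, Bach2 at 14.3% and Myb at 13.6%. By their brightest probes, the ratios of these 9 factors thus ranged from -2.41 to -0.40 while the differences kept between 12.7% and 19.1% with normexp. The net signal gave 15.8% to 25.8%, and there Ebf1 at 25.8% and Runx3 at 25% lay above the 5 called factors, of which Satb1 was highest at 23.6%. Id3 was at -0.114%, and at 2.36% with the net signal. For Ebf1, Bcl11a, Runx3 and Myb the brightest probe was too dim in the NP liver for more than a bound. The second Runx3 probe, bright enough in both liver pools, had a log2 ratio of -0.01 (0.05 with the net signal). The second Ebf1 probe, also dim in the NP liver, had -0.13 (-0.40). Other measured probes of Bcl11a, Lef1, Satb1 and Myb had ratios below 0. The difference was taken on the brightest probes alone, so the span does not cover these other probes. With normexp the same quantity had a median of 13.8% over the B cell markers, 15.3% over the T cell markers and 13.7% over the NK cell markers. With the net signal these medians were 17.2%, 19.1% and 18.6%. It was 8.53% over the macrophage markers, 2.75% over the erythroid markers and 1.65% over the granulocyte markers with normexp. The net signal gave 9.66%, 2.64% and 2.2% for these lists. With normexp it was 20.2% over the plasma cell markers, 15.2% over the B lineage targets and 11.5% over the other lymphoid factors. It was 11.2% over the cell cycle genes, 7.77% over the binding partners, 7.42% over the megakaryocyte markers and 7.03% over the paralogs. In the same order the net signal gave 23.9%, 17.4%, 15.4%, 13.6%, 9.41%, 10.6% and 6.42%. Exocrine pancreas markers stood at 49% and hepatocyte markers, which are far above the spleen in the liver, at -182% (49.5% and -435% with the net signal). A reference set held all genes measured in both tissues whose NP spleen level was at least 4-fold above the NP liver level. Over the 1231 such genes with normexp, the median was 12.5% and the quartiles 10.2% and 15%. Over the 1504 with the net signal, the median was 15.1% and the quartiles 11.8% and 18.6%. That set is chosen by the NP liver level. Runx3 and Id3 are not part of it under either setting, and Ebf1 is part of it with the net signal alone. This quantity was chosen after seeing the data.

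**Figure D3:**
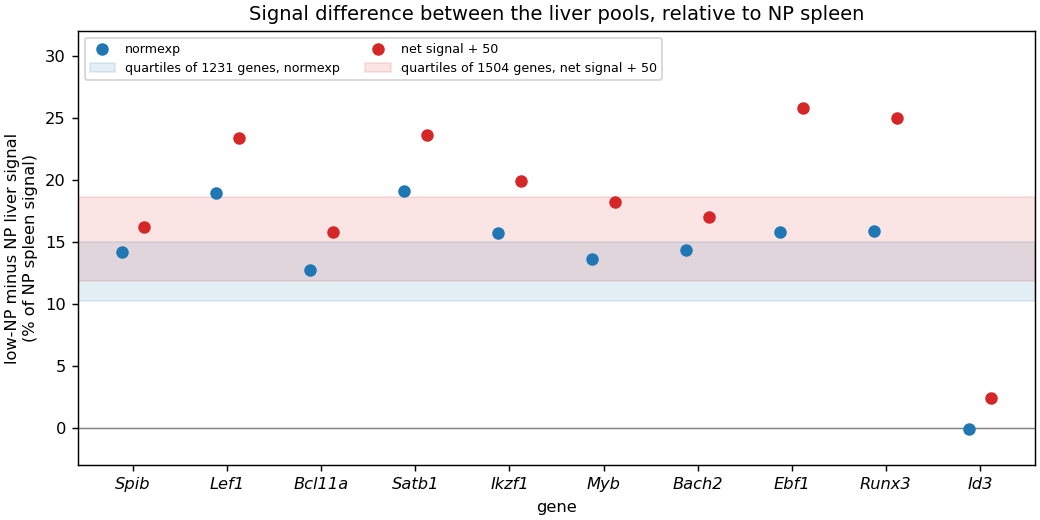
Signal of the low-NP liver minus that of the NP liver, as a percentage of the signal in the NP spleen (vertical axis), for each factor with normexp (blue) and with the net signal plus 50 units (red). Shaded bands are the quartiles over genes whose NP spleen level exceeded the NP liver level by at least 4-fold under each setting. With normexp 9 factors lie between 12.7% and 19.1% by their brightest probes, and Id3 lies at -0.114%.

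Lists of related genes were read beside the 10 factors. Of the 17 paralogs measured in liver, 2 were called lower, and the median was -0.12. These were Spic, an ETS factor of red pulp macrophages, at -2.08 ± 0.34, and Tcf7, the partner of Lef1 in T cells, at -1.11 ± 0.46. Of 16 binding partners, 1 was called lower, the factor Irf8 of B cells and myeloid cells, at -2.19 ± 0.29, and the list's median was -0.19. Of 28 other lymphoid transcription factors, 6 were called lower with a median of -0.33. Among them were Pou2af1, a B cell coactivator, at -4.27 ± 0.65, Pax5, the factor that holds B cell identity, at -2.16 ± 0.95, Relb of the NF-kappaB family at -1.63 ± 0.32 and Ets1 at -1.21 ± 0.19. With the net signal the calls in these 3 lists were 5, 2 and 10, and the medians -0.21, -0.24 and -0.55. In spleen no paralog and no binding partner was called, and the medians were 0.02 and 0.08.

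Of 12 measured genes that EBF1 or other B lineage factors bind and regulate, 9 were called lower in the liver, with a median of -2.05, and with the net signal 11 at -2.64. Ms4a1, which encodes CD20, stood at -4.66 ± 0.70, Cd79b of the B cell receptor at -4.62 ± 0.43 and the adaptor Blnk at -2.56 ± 0.27. Several of them are also among the B cell markers, whose median was -2.09, or -2.85 with all 14 called lower on the net signal. Rag1 and Rag2, the recombinase genes of developing lymphocytes, were not well above background in either liver pool. None of the 12 was called in spleen, where their median was 0.18.

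The liver medians of the remaining cell type lists were -1.76 for T cell markers, led by Cd8b1 at -3.54 ± 0.74, -0.72 for NK cell markers with 4 of 10 called lower, and -0.81 for plasma cell markers with 3 of 8. Among macrophage markers 4 of 12 were called lower at a median of -0.40, erythroid markers -0.30 with 2 of 9 and megakaryocyte markers -0.27 with 2 of 8. The 8 granulocyte markers had a median of -0.45, and of these S100a9 was called lower at -1.94 ± 0.21 and Lcn2, also an acute-phase gene of hepatocytes, higher at 1.15 ± 0.54. No hepatocyte marker was called in liver, where the median of 15 was 0.02. Of 19 cell cycle genes, 5 were called lower in liver, with a median of -0.67, led by Mki67, a marker of dividing cells, at -2.03 ± 0.57. On the net signal the medians were -2.41 for T cell markers with 10 of 15 called lower, -1.31 for NK cell markers with 7 of 10 and -1.18 for plasma cell markers with 5 of 8. Macrophage markers were then at -0.47 with 4 of 12, erythroid markers at -0.50 with 3 of 9, megakaryocyte markers at -0.57 with 4 of 8 and granulocyte markers at -0.84 with 5 of 8 called lower. Cell cycle genes were at -1.04 with 12 of 19, and hepatocyte markers at 0.05 with none called. In spleen the calls in these lists other than hepatocyte and pancreas markers were few. The plasma cell gene Sdc1 and the liver macrophage markers Clec4f and Vsig4 were among those lower, and the erythroid genes Hemgn, Rhd and Ank1 were higher at 0.74, 0.69 and 0.67.

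**Figure D4:**
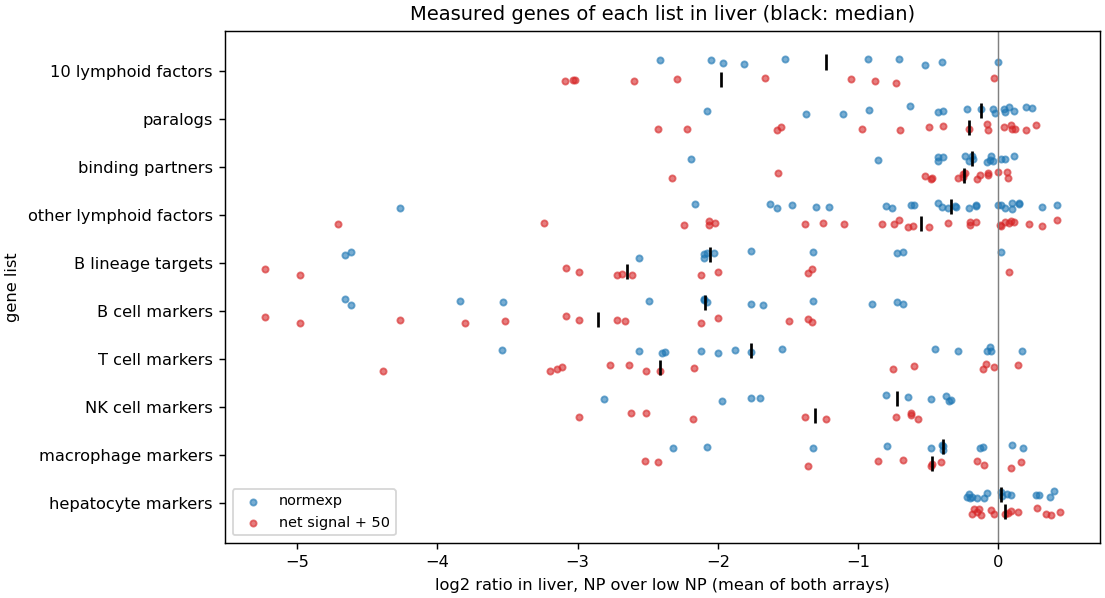
Log2 ratio of NP over low NP in liver (horizontal axis, mean of both arrays) of every measured gene in the 10 factors and 9 related lists, with normexp (blue) and with the net signal plus 50 units (red), and the median of each as a black bar. The factors spread from -2.41 to 0.00 with normexp, with a median of -1.23 that lies between the T cell markers at -1.76 and the hepatocyte markers at 0.02.

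The genes whose profile over the 8 channel levels was nearest to the median profile of the 10 factors were, of 13703 compared, Ptpn7, Pstpip1, Bcl2a1c, Zcchc18 and Cyfip2, at Euclidean distances of 0.20 to 0.26 on the log2 scale. Ptpn7, which encodes a phosphatase of blood cells, had a liver ratio of -1.45 and a spleen ratio of 0.14. Of the factors, Myb lay nearest to that median profile at 0.54 and Id3 farthest at 4.01. With the net signal Ptpn7 was again the nearest gene, at 0.17, and Ikzf3, a paralog of Ikzf1, was among the nearest 5 at 0.26.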

How the data were processed

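RNA of 2 tissues and 2 diets was hybridised to 4 arrays with 2 dyes each. The deposited scanner files hold mean foreground and median local background intensities per spot, the software's processed intensities and a log10 value of Cy5 divided by Cy3, as named per the file headers. They were made with Agilent Feature Extraction 9.5.3.1 per the submitters' processing notes. How the authors made the log10 ratios in the deposited value table was not stated in the labels. Its columns correlated with the scanner ratios at -0.992, 0.990, -0.989 and 0.998 over features, which gives low NP over NP, and their medians were 0.03, -0.07, -0.01 and -0.04, so they are not centred on 0.

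On spleen array 1, 94.7% of probes in the NP channel and 93.1% in the low-NP channel were well above background. On the other arrays the share lay between 58.6% and 67.5% per channel. Negative controls of spleen array 1 had medians of 156 units in Cy3 and 307 in Cy5, against 62.7 to 74.0 on the other arrays. The number of arrays limits the precision. The normexp model with an offset of 50 corrected the background, and ratios were normalized by loess within arrays (Aquantile between arrays for levels) in limma 3.58.1 under R 4.3.3, with controls and outlier-flagged spots given no weight. Tables were computed in numpy 2.4.6 and pandas 2.3.3 under Python 3.11.15, figures in matplotlib 3.10.9, and the calls were tested on simulated data. Repeated spots were averaged, and a gene was measured when both arrays showed its probe well above background in 1 channel or more. Probes were named through a RefSeq table of GRCm38.p6, by accession for 22933, symbol for 6654 and synonym for 3108, while 8458 kept the file's name and 21 were named by the rule for the 10 factors. Positions of probes come from the array files. All 10 factors matched the RefSeq promoter table.

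The factors, gene lists and alternatives were chosen with earlier results of these data known. Named genes are the 10 factors with all their probes, up to 4 genes per list and tissue, taken among the called by the smaller of the array ratios or, with none called, the largest mean, and the 5 nearest profiles. The text gives some of these, and a few are not reported here. Alternatives were no background subtraction, median centring, the scanner's processed signals, the deposited table, single arrays, the mean of a gene's probes, other filters on dim probes, a 2-fold rule and, after seeing the data, the net signal plus 50 units.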

Additional observations from a re-analysis of the deposited data

Results flagged for a closer look

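For 4 of the 10 factors every liver array gave a ratio below 0 and every spleen array one above 0. With median centring the spleen means turned below 0, at -0.10 for Ikzf1, -0.08 for Spib, -0.13 for Bcl11a and -0.11 for Lef1, so the opposite signs rest on the scaling. The liver ratio minus the spleen ratio was -1.65 for Ikzf1, -2.61 for Spib, -2.08 for Bcl11a and -2.20 for Lef1, on the log2 scale of NP over low NP with normexp. For Bcl11a the brightest probe did not rise well above background in NP liver. The bound on the mean of the arrays was 3.76-fold lower there, while array 1 alone gave a log2 ratio of -0.91. Its difference is thus no exact size. The difference between the tissues was not tested, since each tissue has 1 replicate per diet. The spleen values of these 4 factors were all under the 1.5-fold rule. Hepatocyte markers in spleen and most B and T cell markers in liver were higher in the low-NP pools, as given above. What part the source of these markers had in the difference was not tested.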

How the results depend on the processing

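No paired analysis was possible because each tissue had 1 replicate per diet, so no result comes from a test and the array numbers run along with the dye orientation. Of the 10 factors, 5 were called lower in liver. The count was 8 without background subtraction, 9 with the scanner's processed signals, 9 with the deposited table and 9 with the net signal plus 50 units (chosen after seeing the data). It was 4 with median centring and 3 with the 2-fold rule. With both channels required to be well above background, 4 of the 6 factors left were called lower, where 597 of 15472 genes were. Left to single arrays, the count ran from 5 to 9, the higher value on array 2. Their liver median was -3.37 with the processed signals and -3.38 with the deposited table. The spleen median was -0.11 with median centring and 0.22 with the processed signals and with the deposited table. The NP liver signal was 2.14% of the NP spleen signal with the processed signals, where it was 11.7%. Over all genes, 620 were called lower in liver, against 1328 without background subtraction, 324 with median centring, 1745 with the processed signals, 1752 with the deposited table, 296 with the 2-fold rule, 1357 with the net signal and between 700 and 1914 on single arrays. Genes called higher in liver, 12, became 297 with the processed signals, 306 with the deposited table, 6 with the 2-fold rule and 76 to 345 on single arrays. In spleen the 8 genes called higher became 3 with median centring, 48 with the processed signals and with the deposited table, 1 with the 2-fold rule and 50 to 130 on single arrays, and the 1170 called lower became 772 with the 2-fold rule. Of the values of single factors under these alternatives, 163 moved by less than 1 SD of their arrays and 33 by more, and none that was called changed sign. A single array cannot move a value past that SD, and the filters on dim probes left the values of the factors they kept unchanged. Part of the 163 was thus fixed in advance, and the count is no measure of stability. The normexp background of liver array 1 stands above, and the cause of the changes was not tested. Signal over background limits the brightest probes of Ebf1, Bcl11a, Runx3 and Myb in the NP liver, for which bounds are given.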
